A study of Arabidopsis thaliana with 20 samples.

Results

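Pathogenesis-related (PR) proteins are described here through 3 genes of Arabidopsis thaliana: AT5G40020 of the thaumatin family (probe set 249439_at), AT4G31470 of the CAP family (253527_at) and the plant defensin gene PDF1.2, AT5G44420 (249052_at). They were picked by name, with their measured levels in these arrays already known, and are 3 of the 13286 genes that could be named on the array. Each has 1 probe set. Transcripts were measured in 20 samples of whole seedlings, 5 for each of 4 groups, on Affymetrix one-colour arrays. One line carried 35S:VND7-VP16-GR, in which the strong 35S promoter drives a fusion of 3 parts: VND7, which belongs to the NAC transcription factors and acts in xylem vessel formation, the activating domain of VP16, and GR, the steroid-binding part of the glucocorticoid receptor. The control line carried 35S:VP16-GR, the same construct without VND7, called the empty vector. Both lines were homozygous with a single insertion, so each stands for 1 transformation event. Seedlings 10 days old, raised on agar medium under 16 h of light a day at 23 °C, were all soaked in cycloheximide (CHX), an inhibitor of protein synthesis, for 6 h. In the DEX groups, dexamethasone (DEX), which lets receptor fusions enter the nucleus, was present for the last 4 h. The protocol text gives 10 µM for both compounds and other label fields give 10 mM, and this was not settled.

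PR proteins were first recognised as proteins that accumulate in infected leaves. Thaumatin-like proteins (whose best known member is PR5) and defensins can inhibit fungal growth, and the CAP family is named after proteins that include PR1. Many family members are also expressed in healthy tissues. PDF1.2 is a standard reporter of defence signalling through jasmonate and ethylene, and PR1 and PR5 are reporters of salicylate signalling. The design asks which transcripts respond to the VND7 fusion while protein synthesis is blocked, and uses the empty vector to find responses to DEX itself. No protein or promoter sequence was used here.

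Values are array signals in arbitrary units, recovered from the deposited values, or log2 differences between groups. Probe sets differ in how brightly they report a transcript, so signals are compared between arrays and not between genes. Arrays of 1 group correlated across all probe sets with r between 0.933 and 0.957. The green-tissue markers RCA and LHCB4.1 (2 of 5 listed markers measured) had summed signals of 26247 to 43087, and the root hair markers EXPA7 and EXPA18 (2 of 3) had 40.3 to 158.5, with overlapping ranges in the 4 groups. No probe set was paired with VND7, so the fusion transcript could not be checked. Nothing in the labels states that the replicates were separate cultures. The p-values therefore reflect the spread among these samples alone, and that spread may be technical. Unless a replicate block is named, the fit left out the replicate number. Shifts shared by same-numbered arrays are then part of the standard errors (SE), intervals and p-values. For PDF1.2 in the VND7 line the SE was 1.07 without the replicate number and 0.32 with it. For AT4G31470 it was 0.61 and 0.63. In whole seedlings, fewer cells that express a gene and less RNA per cell cannot be told apart.

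AT5G40020 was high in a single group, the VND7 line with DEX. On those 5 arrays its signals were 1475, 921.8, 779.4, 603 and 599.1 (replicates 1 to 5). With CHX alone the VND7 line gave 76.6, 73.5, 79.9, 70.6 and 107.6. The lowest array with DEX was 5.57-fold above the highest array without it, so the groups did not overlap. Such a separation, upwards with DEX, was seen in 0.923% of the 22746 probe sets, and it was part of how the gene was chosen. The group means with and without DEX were 876 ± 361 and 81.6 ± 14.9 (SD, n = 5), a 10.7-fold ratio, and the log2 difference was 3.33 ± 0.52 (SE; 95% interval 2.25 to 4.41). This difference and its counterparts below are given as descriptions with no test, since the 3 genes were selected on them.

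In the empty-vector line the thaumatin gene was low with and without DEX. With CHX alone its signals were 35.9, 42.4, 63, 75.6 and 92.9, and with DEX they were 9.8, 55.4, 5.3, 36.3 and 63.1. The ranges overlapped, and the array with DEX was the lower one in 4 of 5 same-numbered pairs. The log2 difference was -1.34 ± 0.52 (interval -2.42 to -0.26), and replicates 1 and 3 with DEX were its low arrays (9.8 and 5.3). Without replicate 3 with DEX it was -0.81, and with the 30th percentile of each array's signal (46.2 to 58.7) added before taking logs it was -0.42. With DEX, all 5 arrays of the VND7 line were above all 5 of the empty-vector line, by 9.49-fold between the nearest arrays. Of all probe sets, 1.29% separated these groups in this direction, and here too the values were part of the choice. The difference between the responses of both lines was 4.67 ± 0.73 on the log2 scale (interval 3.14 to 6.20).

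The same-numbered pairs of the VND7 line all had AT5G40020 higher with DEX, but by unequal ratios. The ratio was 19.3 in replicate 1, 12.5 in replicate 2, 9.75 in replicate 3, 8.54 in replicate 4 and 5.57 in replicate 5. The arrays with CHX alone lay close together apart from replicate 5 (107.6), so the spread came mostly from the arrays with DEX. With DEX, replicate 1 had a signal of 1475 (1 array). The mean was 851 for replicates 2 and 3 and 601 for replicates 4 and 5. These small sets of arrays did not overlap. The share of all probe sets with such a separation was not counted, so it is not shown to be particular to AT5G40020.

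**Figure D1:**
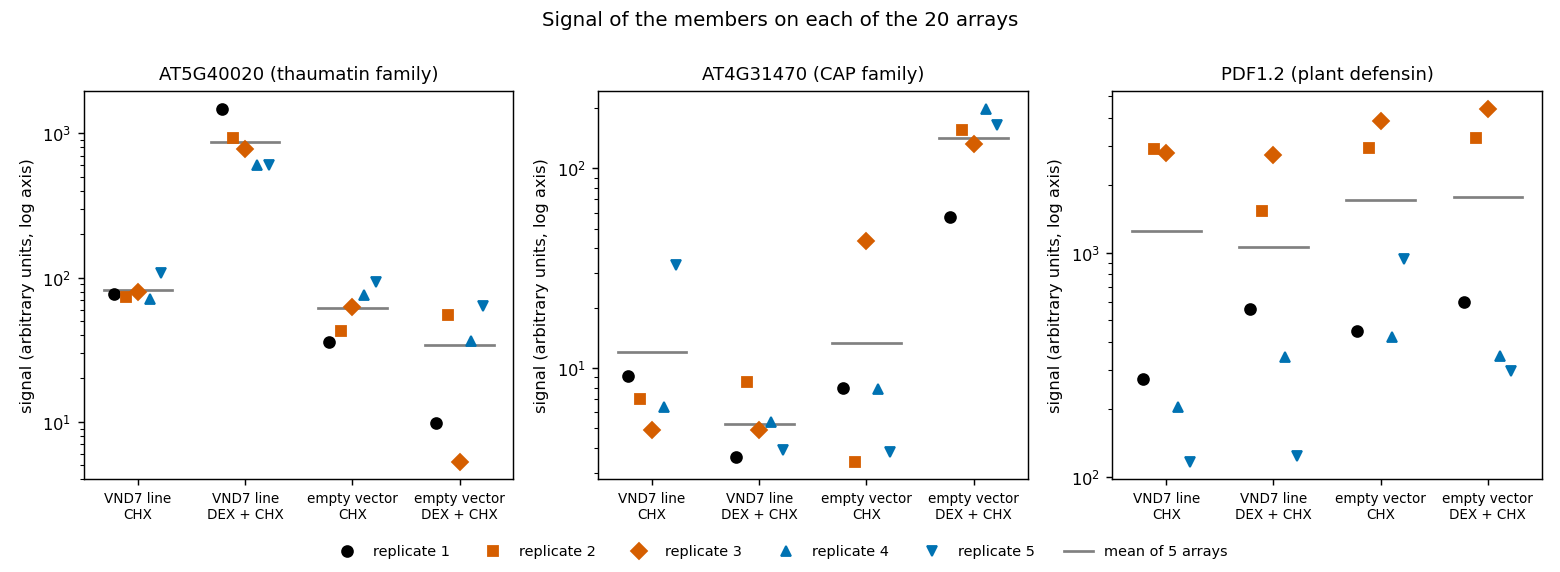
Signal of each gene (arbitrary units, log axis) on each of the 20 arrays by group, with a symbol per replicate number and a grey line at the mean of 5 arrays. AT5G40020 is high in the VND7 line with DEX (599.1 to 1475), AT4G31470 in the empty-vector line with DEX (57.1 to 198.7), and PDF1.2 in replicates 2 and 3 of every group (1538.7 to 4388.7).

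AT4G31470 had its high signals in another group, the empty-vector line with DEX. There its signals were 57.1, 155.7, 133, 198.7 and 165.5. With CHX alone the same line gave 8, 3.4, 43.5, 7.9 and 3.8. All arrays with DEX were above all arrays without it, by 1.31-fold between the nearest arrays. Upward separation of these groups was seen in 0.822% of all probe sets, and it too was part of the choice. The means were 142 ± 53 and 13.3 ± 17, a 10.7-fold ratio, and the log2 difference was 4.01 ± 0.61 (interval 2.74 to 5.28).

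The base of this comparison was near the floor of the scale, where signals of a few units have no reliable ratio. With CHX alone 4 of the 5 empty-vector arrays were between 3.4 and 8, and replicate 3 stood apart at 43.5. Without that array the mean was 5.78 ± 2.52 (n = 4) and the ratio of means 24.6. With the same pseudocount as above, the log2 difference was 1.55. The size of the difference is therefore unsettled. The array with DEX was higher in 5 of 5 pairs, by 3.06-fold to 45.8-fold. The gene was chosen on these values, and 4 of the 5 ratios rest on a base near the floor.

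In the VND7 line AT4G31470 was near the floor in both groups. Its signals were 9.1, 7, 4.9, 6.4 and 32.7 with CHX alone and 3.6, 8.5, 4.9, 5.4 and 3.9 with DEX. The ranges overlapped, and the log2 difference was -0.90 ± 0.61 (interval -2.17 to 0.37). It was -0.46 without replicate 5 with CHX alone and -0.09 with the pseudocount. All 5 arrays with DEX of the VND7 line (up to 8.5) lay below all 5 of the empty-vector line (57.1 and above), a separation in this direction that 0.901% of all probe sets had. The difference between the responses was -4.91 ± 0.86 on the log2 scale, or -1.64 with that pseudocount.

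PDF1.2 differed more between replicate numbers than between groups, a pattern that was part of how it was chosen. In the VND7 line its signals were 271.8, 2896.2, 2783.1, 203.6 and 116.4 with CHX alone and 561.2, 1538.7, 2725.4, 343.6 and 124 with DEX. In the empty-vector line they were 445.5, 2927.5, 3880.3, 420.5 and 934.6 with CHX alone and 600.9, 3250.1, 4388.7, 346.2 and 296.6 with DEX. In every group the high arrays were replicates 2 and 3, and the groups overlapped over almost their whole ranges.

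The log2 difference of PDF1.2 with DEX was 0.17 ± 1.07 in the VND7 line (interval -2.07 to 2.4) and -0.24 ± 1.07 in the empty-vector line (-2.47 to 2.00). With the replicate number as a block the same differences had intervals of -0.50 to 0.83 and -0.90 to 0.42. These values leave room for a change in either direction and do not show that DEX left this defensin transcript as it was. Same-numbered pairs had ratios of 0.531 to 2.06 in the VND7 line and 0.317 to 1.35 in the empty-vector line, with DEX the higher in 3 of 5 pairs in both.

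Replicates 2 and 3 had a PDF1.2 median of 2912 (8 arrays, 1538.7 to 4388.7), replicates 4 and 5 a median of 320.1 (8 arrays, 116.4 to 934.6), and replicate 1 a median of 503.4 (4 arrays, 271.8 to 600.9). The ratio of means of replicates 2 and 3 to replicates 4 and 5 was 17.7 and 9.12 in the VND7 line with CHX alone and with DEX, and 5.02 and 11.9 in the empty-vector line. No array of replicates 2 and 3 overlapped one of replicates 4 and 5. After group means were subtracted, 16.9% of all probe sets separated these replicates, and 10.3% did so with replicates 2 and 3 higher, as for PDF1.2. Of the variance of its log2 signal over the 20 arrays, 86.3% lay between replicate numbers and 6.02% between groups. For AT5G40020 the shares were 2.99% and 84.9%, for AT4G31470 2.00% and 80.8%, and the medians over all probe sets were 43.0% and 9.90%. The labels give the replicate numbers without saying what a number shares, so what differs between them was not tested.

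Without DEX, the lines are set side by side with no test, since all 4 groups entered the choice of the genes. AT5G40020 was higher in the VND7 line in 4 of 5 pairs, with a log2 difference of 0.49 ± 0.52 (interval -0.59 to 1.57). AT4G31470 differed by 0.19 ± 0.61 (-1.08 to 1.46), with 3 of 5 pairs higher in the VND7 line, and by -0.05 with the pseudocount. PDF1.2 was lower in the VND7 line in all 5 pairs, with ratios of 0.125 to 0.989, and its log2 difference was -1.03 ± 1.07 (-3.27 to 1.2). With the replicate number as a block that interval was -1.70 to -0.37. Replicate 5 had the ratio of 0.125, against 0.484 to 0.989 in the other pairs. With single arrays left out, the difference without the block went from -1.65 to -0.45. With DEX, PDF1.2 was again the lower one in the VND7 line in all 5 pairs (0.418 to 0.992).

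Ordered by mean signal, AT5G40020 went from the VND7 line with DEX (876 ± 361) to the VND7 line with CHX (81.6 ± 14.9), the empty vector with CHX (62.0 ± 23.5) and the empty vector with DEX (34.0 ± 26.1). The last 3 groups overlapped from each to the next. For AT4G31470 the order was the empty vector with DEX (142 ± 53), the empty vector with CHX (13.3 ± 17), the VND7 line with CHX (12 ± 11.7) and the VND7 line with DEX (5.26 ± 1.95), again with the last 3 overlapping. For PDF1.2 it was the empty vector with DEX (1777 ± 1911), the empty vector with CHX (1722 ± 1585), the VND7 line with CHX (1254 ± 1449) and the VND7 line with DEX (1059 ± 1077), and the ranges of neighbouring groups overlapped.

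The rest of the 3 families gave the setting for these genes. Of 22 listed thaumatin family genes 18 had a named probe set, of 22 CAP genes 19 and of 15 plant defensins 12, which leaves 46 genes beside the 3. PR1 and PR5, the usual salicylate reporters, are not analysed here. Of the 46, 0 passed in the VND7 line with DEX (limma, adjusted p under 0.05; 0 at an unadjusted p under 0.05), where 0.453% of all probe sets passed. In the empty-vector line 0 of 46 passed (1 at an unadjusted p under 0.05; background 0.281%). In the difference of responses 0 of 46 passed (0 unadjusted; background 0.391%), and between lines under CHX alone 0 of 46 (1 unadjusted; background 0.0264%). With the replicate block the counts were also 0 of 46 in all 4 comparisons, with backgrounds of 1.04%, 0.712%, 1.05% and 0.0923%. At such backgrounds a list of this size would hold few calls if it behaved like the rest of the array, so the zeros say little about the families as groups.

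The thaumatin family without AT5G40020 had a median log2 difference with DEX of -0.11 in the VND7 line and -0.05 in the empty-vector line, against medians of -0.02 and -0.01 over all probe sets. The member with the smallest p was ATLP-1 (AT1G18250), which under CHX alone was lower in the VND7 line by a log2 difference of -0.30 ± 0.16 (limma, adjusted p = 0.9998). Its signals there were 184.7, 182.1, 138.8, 223.1 and 221.3, against 287.7, 193, 235.9, 260.5 and 202.8 in the empty-vector line, and the ranges overlapped. AT1G77700, AT1G73620 and AT1G19320 followed it with differences of 0.54 ± 0.32 (between the responses), -0.29 ± 0.18 (VND7 line with DEX) and -0.78 ± 0.56 (empty vector with DEX). OSM34, an osmotin-like protein, had group means between 395.5 and 563.7.

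CAP genes other than AT4G31470 had a median of -0.04 in the VND7 line and -0.15 in the empty-vector line. AT4G33730 had the smallest p and the largest fitted difference of the 18: with DEX the empty-vector line gave 61.9, 41.3, 67.7, 81.9 and 112.4, and with CHX alone 44.9, 5.4, 6.9, 25.1 and 24.1. One array without DEX (44.9) was above the lowest with DEX (41.3). The log2 difference of AT4G33730 was 2.12 ± 0.73 (unadjusted p = 0.00837 and adjusted p = 0.780 by limma, 0.328 with the block), so it did not pass. In the VND7 line its difference was 0.85 ± 0.73. AT4G25780 (-0.59 ± 0.27 between lines under CHX alone), PR-1-LIKE (-0.94 ± 0.49 in the VND7 line with DEX) and AT4G25790 (-0.92 ± 0.65 between the responses) were next by p, at signals of 7.5 to 77.3.

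Plant defensins without PDF1.2 had a median of 0.02 in the VND7 line and 0.30 in the empty-vector line, against -0.02 and -0.01 over all probe sets. In the empty-vector line the 11 genes ran from -0.43 to 0.71, with 7 above 0. The median there was the value of PDF2.5, at low signals of 27.9 ± 8.81 with CHX and 33.8 ± 7.17 with DEX. LCR72 (PDF2.6) differed most in the VND7 line, by 1.37 ± 0.69 (limma, unadjusted p = 0.0595, adjusted p = 0.999985), so it did not pass. Its signals were 10.2, 9.1, 3.3, 4.1 and 5.3 under CHX and 2.4, 27.5, 19.1, 24.4 and 27.4 with DEX. Those under CHX were near the floor, where ratios are not reliable, so the size of this difference is unsettled. The LCR72 array of replicate 1 with DEX was the lowest of all 10, against the other 4. LCR68 (PDF2.3), PDF1.4 and LCR66 (PDF2.4) had differences of -0.34 ± 0.22 (VND7 line with DEX), -0.43 ± 0.28 (empty vector with DEX) and -1.26 ± 0.95 (between the responses).

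**Figure D2:**
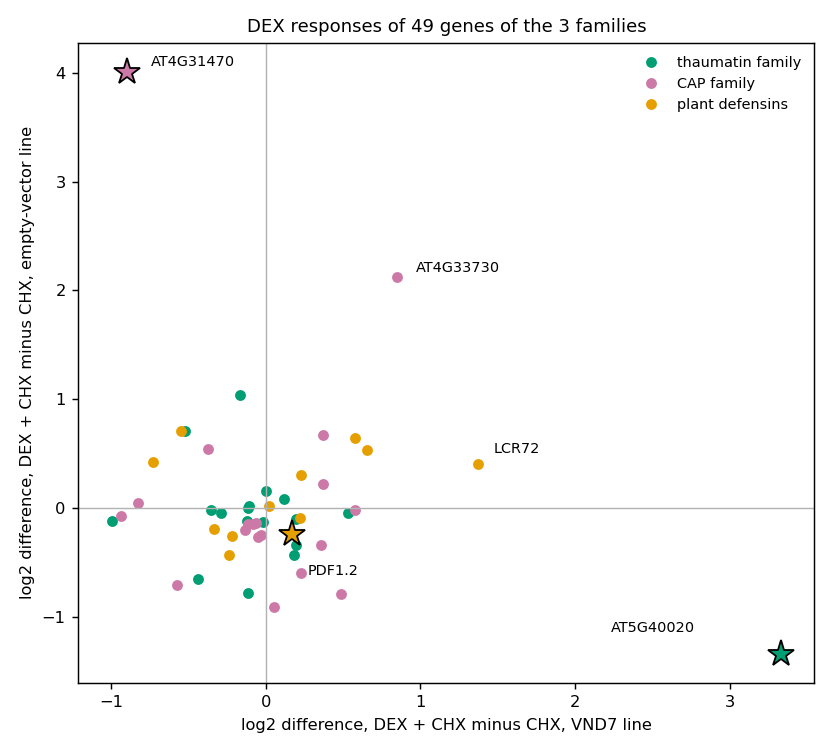
Log2 difference between DEX with CHX and CHX alone in the VND7 line (x axis) and in the empty-vector line (y axis) for 49 genes of the 3 families, coloured by family, with stars for the 3 genes described. AT5G40020 lies at 3.33 and -1.34, AT4G31470 at -0.90 and 4.01, and PDF1.2 at 0.17 and -0.24. The other 46 lie between -0.997 and 1.37 on the x axis and between -0.90 and 2.12 on the y axis.

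Other defence genes on the lists were measured only in small part. Of 9 other PR proteins the thionin genes THI2.1 and THI2.2 were measured, of 18 jasmonate and ethylene genes only EIN3, a transcription factor of ethylene signalling, and of 18 salicylate genes SAG101 and WRKY53. Of these 5 genes 0 passed in any of the 4 comparisons, with or without the block (limma). Over all probe sets 0.0264% to 0.453% passed without the block and 0.0923% to 1.05% with it, so a zero among 5 genes says little about them. SAG101, a lipase-like protein of immune signalling, reached an unadjusted limma p of 0.0110 in the empty-vector line with DEX (log2 difference 0.35 ± 0.12, adjusted p = 0.906). Between lines under CHX alone it was 0.0210 (adjusted p = 0.9998). Both comparisons use the empty-vector arrays with CHX alone, whose SAG101 mean was 386 ± 65.6, against 473 to 543 in the other groups. EIN3 had group means of 1466 to 1563, and its smallest p belonged to a log2 difference of 0.07 ± 0.10.

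Within the families, PDF1.2 was not alone in following the replicate numbers. After group means were subtracted, 10 of the other 46 genes (21.7%) had all 8 arrays of replicates 2 and 3 on one side of all 8 of replicates 4 and 5, against the 16.9% of all probe sets. In a list of this size that count is near the background, so it says little about the families as groups. The defensins among the 10 were PDF1.2b and LCR67 (PDF1.1), higher in replicates 2 and 3 like PDF1.2, and LCR69 (PDF2.2), lower. Of the 17 thaumatin family genes 5 were lower in replicates 2 and 3 (29.4%) and 0 higher, and of the CAP family 1 was higher and 1 lower. Over all probe sets 6.6% were lower and 10.3% higher. These genes were named for this pattern after their values were seen, and it was not tested.

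PDF1.2b went from 190.2 to 1292.6 in replicates 4 and 5 and from 2449 to 4285 in replicates 2 and 3. The name of its probe set marks possible binding to similar transcripts, and the PDF1.2 copies are near identical, so both values may read the same RNA. LCR67 had 279.7 to 425.6 in replicates 2 and 3, 62.3 to 123.3 in replicates 4 and 5 and 58.8 to 75.9 in replicate 1. Like PDF1.2, it had the arrays of replicate 1 at the low level. LCR69 had 1650 to 3253, 3504 to 6688 and 1126 to 1902 in the same order.

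AT2G19970 of the CAP family had a different order of replicate numbers. Its signals were 112.4 to 165.3 in replicate 1, 40 to 123.5 in replicates 2 and 3 and 2.6 to 23.6 in replicates 4 and 5, so replicate 1 was with the high arrays. The log2 difference between replicates 2 and 3 and replicates 4 and 5 was 3.78, next to 3.48 for PDF1.2. The thaumatin gene AT1G20030 ran the other way, with 2.5 to 36 in replicates 2 and 3, 119.7 to 262.1 in replicates 4 and 5 and 41.9 to 83.1 in replicate 1. AT5G40020 and AT4G31470 had log2 differences of -0.36 and 0.11 between the same replicates, with overlapping arrays.

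**Figure D3:**
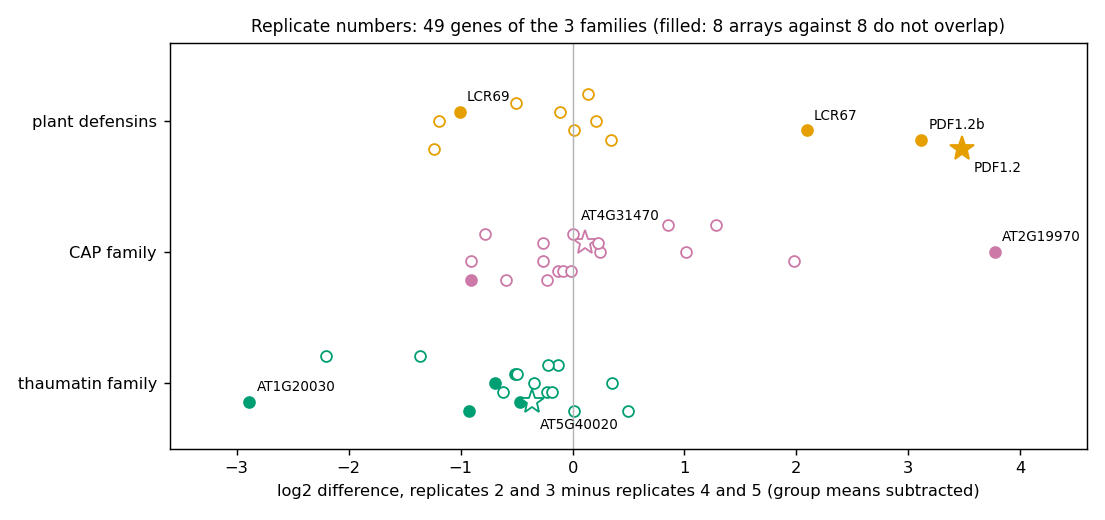
Log2 difference between replicates 2 and 3 and replicates 4 and 5 (x axis, group means subtracted) for 49 genes in rows by family, with stars for the 3 genes described and filled symbols where 8 arrays against 8 did not overlap. PDF1.2 (3.48), PDF1.2b (3.12), LCR67 (2.09) and AT2G19970 (3.78) lie far to the right and AT1G20030 (-2.89) far to the left.

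**Figure D4:**
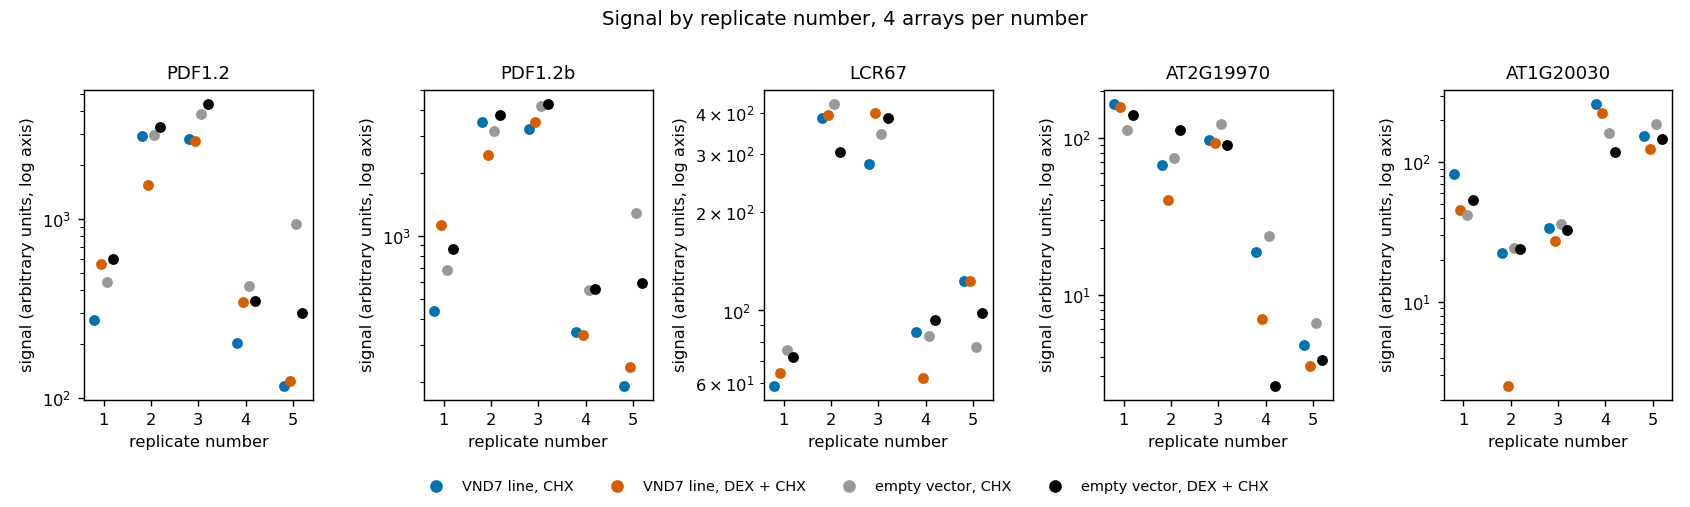
Signal (arbitrary units, log axis) by replicate number for 5 genes, with 1 point per array coloured by group. PDF1.2, PDF1.2b and LCR67 are high in replicates 2 and 3 of all 4 groups, AT2G19970 is low in replicates 4 and 5 (2.6 to 23.6), and AT1G20030 is low in replicates 2 and 3 (2.5 to 36).

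Likeness to the 3 genes was measured by Pearson's r of log2 signal over the 20 arrays, as a description. The arrays share groups and replicate numbers, which enter every r. Most like AT5G40020 were AT1G10800 (r = 0.947), the polygalacturonase family gene AT1G23460 (0.923; its probe set may also bind similar transcripts) and AT5G66390, the peroxidase PRX72 (0.922). Their means in the VND7 line went from 47.1 ± 6.25 with CHX to 228 ± 46.4 with DEX for AT1G10800 and from 690 ± 189 to 1589 ± 323 for AT5G66390. In the empty-vector line AT5G66390 had 513 ± 105 and 516 ± 103.

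Most like AT4G31470 were AT5G43000 (r = 0.886), AT3G46700 of the UDP-glycosyltransferase family (0.882) and AT3G01190, the peroxidase PRX27 (0.869). In the empty-vector line AT3G01190 had 1084 ± 301 with CHX and 4409 ± 1359 with DEX, and in the VND7 line 1215 ± 329 and 1067 ± 276. Its levels were far above the floor, unlike the 3.24 ± 0.50 of AT5G43000 in the empty-vector line with CHX.

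Most like PDF1.2 were PDF1.2b (r = 0.989), the cytochrome P450 gene CYP71B22 (0.951) and AT2G38800, related to calmodulin-binding proteins (0.943). CYP71B22 had group means between 727 and 903. Among the 3 genes themselves r was -0.585 for AT5G40020 with AT4G31470, 0.089 for AT4G31470 with PDF1.2 and -0.177 for AT5G40020 with PDF1.2. After group means were subtracted the first of these was 0.238.

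For each of the 3 genes the nearest protein-coding genes with a named probe set were taken, a pair on either side and 12 in all. They lay 1 to 6 genes away, since genes without a named probe set were passed over. Of the 12, 0 passed in any of the 4 comparisons (limma), as most sets of this size would at backgrounds of 0.0264% to 0.453%. AT5G40030, the next gene after AT5G40020, had means of 46.5 ± 24.8 with CHX and 54.3 ± 6.70 with DEX in the VND7 line (log2 difference 0.76). These means lay close together beside the SD with CHX, and the log2 difference gives low arrays more weight than the means do. AT4G31460, just before AT4G31470, had 346 ± 59.5 and 399 ± 44.0 in the empty-vector line (0.21). Around PDF1.2, AT5G44410 had means of 42.3 to 56.2 in the 4 groups. PDF1.2c, its nearest neighbour on the other side, is not analysed here.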

How the data were processed

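The submitters' processing notes name MAS5 for the signals, without a version. The authors deposited natural log values of each signal divided by its array's median: columns had medians of 0, and after exponentiation 100% of the values checked per array (13796 to 14327, tolerance 0.05 of a step) were whole steps of 0.1. Array medians were 159.7 to 186. The values were turned into log2 with no pseudocount. Detection calls were not used here, and precision is limited by how many arrays there are. Of 22746 probe sets 13436 had 1 gene in the supplied platform table, with names from RefSeq (TAIR10.1).

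Groups were taken from the sample titles. Differences were tested over all probe sets with limma 3.58.1 in R 4.3.3 (lmFit, eBayes with a variance trend, Benjamini-Hochberg, 4 group means over 20 arrays). The fit was checked on simulated arrays with independent noise and no effect of replicate number. That check does not cover the shared replicate effects of these data. The replicate numbers pair the arrays: deviations from group means correlated in all 30 same-numbered pairs (r = 0.558 to 0.835 over 11367 probe sets). Replicates 2 with 3 and 4 with 5 correlated nearly as strongly (r = 0.514 to 0.779) and other numbers negatively, so the arrays fell into 3 sets. A fit with that block was an alternative, as were scaling, pseudocount, filter, variance prior, the arrays in the fit and each array left out. The genes and lists were chosen with earlier results of these data known. Family lists were compiled from general knowledge of the genome's annotation, since the tables used here hold no descriptions. Named genes were the 3 members, listed genes past the threshold, the 4 with the smallest p in each list and the 3 most correlated per member. Chromosome neighbours were added after the data had been seen. The promoter motif search that had been planned was not run.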

Additional observations from a re-analysis of the deposited data

Results flagged for a closer look

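Each of the 12 sets of 5 arrays (3 genes in 4 groups) was examined by signal for a single array far from the others. For normally spread values chance gives such an array in about 1 of 20 sets. Signals near the floor need not be spread that way, so this rate may not hold here. In 3 sets the gap in signal to the nearest array exceeded 0.71 of the whole range. On the log2 scale these high arrays stood less far from the others. For AT4G31470 in the empty-vector line with CHX alone, replicate 3 had a signal of 43.5, where the other 4 arrays had 3.4 to 8. For AT4G31470 in the VND7 line with CHX alone, replicate 5 had 32.7, where the others had 4.9 to 9.1, and without it the ratio of means with and without DEX was 0.768 in place of 0.438. For AT5G40020 in the VND7 line with CHX alone, replicate 5 had 107.6, where the others had 70.6 to 79.9, and without it the ratio of means was 11.7.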

How the results depend on the processing

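The count of listed genes past the threshold (51 genes of the families and defence lists, without the 3 members) was 0 in all 4 comparisons under every alternative run with limma, the replicate block and each of the 20 arrays left out included. At the backgrounds given above, such zeros say little about lists of this size. Without the dimmest 40% of probe sets only 19 of the 51 were still tested, and AT5G40020 and AT4G31470 fell below that filter. The log2 difference of AT5G40020 in the VND7 line (3.33) was 2.74 with the 30th-percentile pseudocount, 4.21 within replicate 1 and 2.83 within replicates 4 and 5, and its difference between the responses (4.67) was 3.16, 6.01 and 3.64 in the same order. Between lines under CHX alone it was 1.18 within replicate 1 and 0.020 within replicates 4 and 5. For AT4G31470 the pseudocount gave 1.55 in the empty-vector line and -1.64 between the responses, which was -3.46 within replicates 2 and 3 and -6.66 within replicates 4 and 5. In the VND7 line it was 0.068 within replicates 2 and 3. The pseudocount shrinks ratios of low signals by construction, and what differs between replicate numbers was not tested. With single arrays left out, AT5G40020 in the VND7 line went from 3.13 to 3.45, AT4G31470 in the empty-vector line from 3.72 to 4.63, and PDF1.2 crossed 0 in both lines (-0.41 to 0.78 and -0.78 to 0.21). The replicate block changed no call and left the differences themselves as they were, at 3.33 for AT5G40020 in the VND7 line and 4.01 for AT4G31470 in the empty-vector line, since the design is balanced. The 10 listed genes whose replicate numbers did not overlap were also 10 under quantile normalization, trimmed mean scaling and the pseudocount, alternatives chosen after seeing the data.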

Other observations

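WRKY53, a transcription factor of defence and leaf ageing, was high in replicate 1 of every group. Its signals there were 2654 and 1948 in the VND7 line with CHX alone and with DEX, and 2617 and 2368 in the empty-vector line, while the other 16 arrays had 792.9 to 1702. In this it differed from PDF1.2, which was at its low level in replicate 1. THI2.2, a thionin gene, had its lowest array of every group in replicate 2, at 94.8, 107.3, 96 and 137.5, in the order VND7 line with CHX and with DEX, then empty vector with CHX and with DEX. Both genes were picked after their values were seen, and no test was made. The share of all probe sets with either pattern was not counted. Over all probe sets, a median of 43.0% of the log2 variance lay between replicate numbers. Neither pattern is therefore shown to be particular to these genes.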
